A study of Mus musculus with 2 samples.

Results

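The type I interferon response module is a group of genes switched on when a cell senses interferon alpha or beta. Its members were a given list of 36 genes, of which 35 were rows of both count tables, among 17683 genes listed in either library. The other gene, Mx1, was not analysed here. The rule takes genes by name and uses no measured value, but the list was chosen with earlier results of these data known. The cells were CD45+ cells (CD45 is the pan-leukocyte surface protein) sorted from retinas of B6 mice in which microbeads injected into the eye had raised its pressure, the microbead-induced glaucoma model. One group received PBS and the other Igfbpl1, a secreted protein of the insulin-like growth factor binding family, and all mice were 8 to 10 months old. Each group was 1 library pooled from 10 mice, and both went through enzymatic digestion for 1 hour at 37 °C before the sort, so the groups share the glaucoma, the digestion and the sort.

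Type I interferons bind the receptor pair Ifnar1 and Ifnar2, whose kinases phosphorylate transcription factors such as Stat2. With Irf9 these form a complex that enters the nucleus and binds the interferon-stimulated response element, a short DNA motif in front of its target genes. The targets block viral RNA and protein synthesis, sense foreign nucleic acids and, through Usp18, damp the receptor again. In the nervous system microglia, the resident macrophages, are known to turn this response on during injury and ageing.

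The response element in front of the members shows what they share in sequence. A core of the element, GAAA, any 2 bases and GAAA again, was searched on both strands, with overlapping matches allowed, from 250 bases before to 50 after the RefSeq start (GRCm38.p6). It was found for 15 of the 29 members with an entry (51.7%), against 501 of 12831 genes listed in either library that had one (3.90%). The 160 bases before the start are given for 4 members whose values lead the results, with matches in capitals: Isg15, higher in every class compared; Ifit3, of the IFIT family; Bst2, highest in plasmacytoid dendritic-like cells; and Slfn2, higher in microglia-like cells alone. Isg15 is at chr4:156200819-156200978, minus strand; Ifit3 at chr19:34583369-34583528, plus strand; Bst2 at chr8:71537473-71537632, minus strand; and Slfn2 at chr11:83064952-83065111, plus strand.
Isg15: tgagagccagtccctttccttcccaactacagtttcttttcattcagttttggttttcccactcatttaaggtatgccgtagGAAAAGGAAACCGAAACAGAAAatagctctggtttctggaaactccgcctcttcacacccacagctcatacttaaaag
Ifit3: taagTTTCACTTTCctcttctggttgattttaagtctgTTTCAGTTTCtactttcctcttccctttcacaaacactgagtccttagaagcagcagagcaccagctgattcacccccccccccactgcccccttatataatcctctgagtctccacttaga
Bst2: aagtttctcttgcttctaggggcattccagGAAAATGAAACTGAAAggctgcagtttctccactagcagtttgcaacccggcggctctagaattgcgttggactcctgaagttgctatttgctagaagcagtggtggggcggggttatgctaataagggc
Slfn2: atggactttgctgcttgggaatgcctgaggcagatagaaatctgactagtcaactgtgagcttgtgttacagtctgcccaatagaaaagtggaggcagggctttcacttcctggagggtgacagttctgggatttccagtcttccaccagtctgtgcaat
The Isg15 stretch held 3 overlapping matches on its own strand, the Bst2 stretch 2 overlapping ones, the Ifit3 stretch 2 separate ones on the opposite strand, and the Slfn2 stretch 0. A match describes these letters and not binding.

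Transcripts were counted by unique molecular identifiers (UMIs). There were 3795008 UMIs over 1055 cells of the PBS library and 9463631 over 3330 cells of the Igfbpl1 library, with 0 cell barcodes in common. Each cell took the class whose markers it showed most of. Microglia-like cells numbered 818 and 1780, with medians of 3549.5 and 2138.5 UMIs per cell, monocyte/macrophage-like cells 30 and 476, T-like cells 30 and 271, and B-like cells 79 and 68. Ptprc, which encodes CD45, had a UMI in 71.1% and 67.2% of cells, and the sort left some retinal neurons in both libraries. Of the 30 monocyte/macrophage-like PBS cells, 16 (53.3%) lay in cell cluster 1, whose leading markers are those of microglia, and 14 in cluster 12, led by monocyte/macrophage markers. Of the 476 Igfbpl1 cells, 219 lay in cluster 12 and 222 in cluster 15, also led by monocyte/macrophage markers. With 1 library per group nothing was tested: every interval is an exact 95% interval for counting error only, and each ratio compares these libraries rather than the treatments. Levels are given in CPM, a gene's UMIs per 1000000 UMIs of the class. A member was called higher or lower from 1.5-fold on a log2 ratio with 10 CPM added to both libraries, which understates the change of low genes.

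In microglia-like cells the module stood higher in the Igfbpl1 library. The 35 members together made up 2137 CPM with PBS (2085 to 2189) and 4349 CPM with Igfbpl1 (4289 to 4409), a ratio of 2.04 (1.98 to 2.09). Of 32 members with enough UMIs, 20 were higher and 0 lower, where 3.72% of all 8246 genes measured in these cells were higher and 5.94% lower. The members' median log2 ratio was 0.75, and that of all genes was -0.15. With a minimum of 50 CPM, which left fewer members, 10 of 17 were higher (58.8%) against 4.65% of all genes, and with 50 CPM added to the ratio 10 of 32 against 1.64%. The folds of 31 of the 32 were above 1, and the intervals of 29 lay wholly above it. Markers of other cells also moved in these cells: the 14 monocyte/macrophage markers summed to 1192 and 1606 CPM, the 16 T cell markers to 20.4 and 103 CPM with 12 and 16 of them detected, and the 10 NK cell markers to 0.658 and 47.3 CPM with 1 and 10 detected. The 12 microglia markers fell from 19845 to 12992 CPM in sum. The part of these shifts in the module's difference was not tested.

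**Figure D1:**
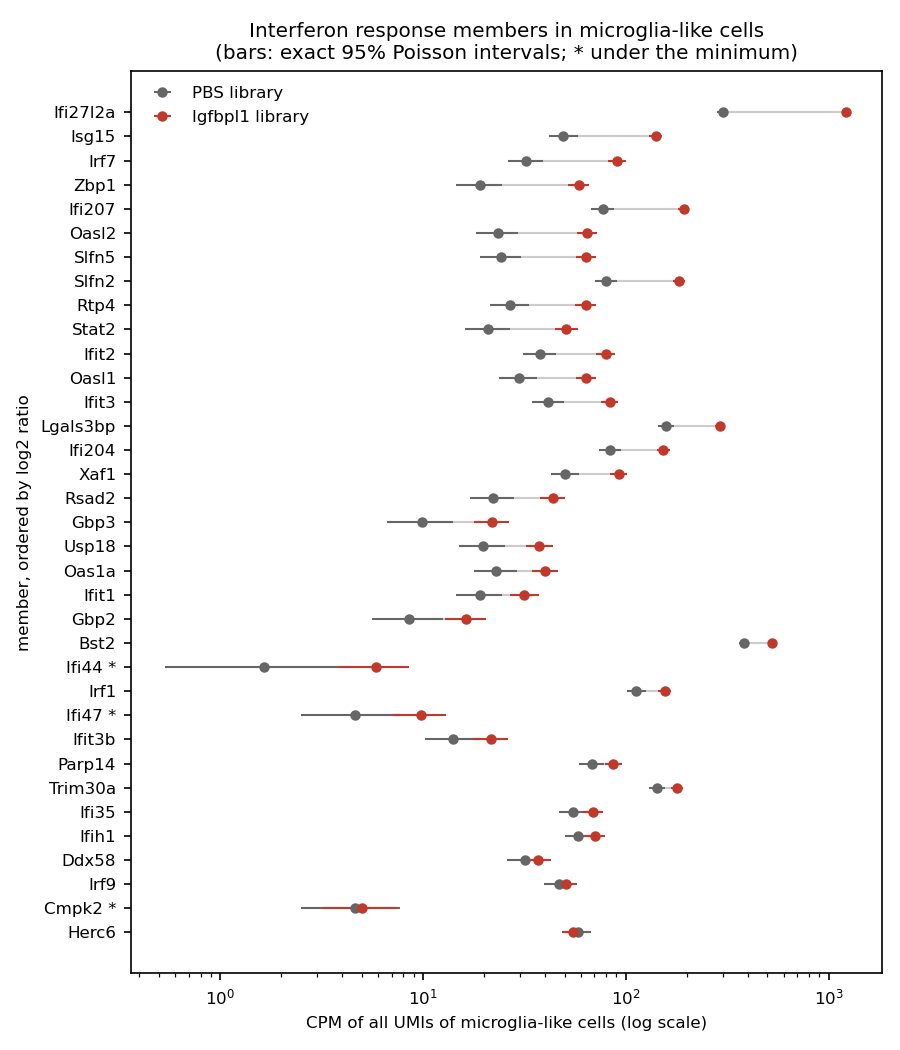
Level of each of the 35 members in microglia-like cells of the PBS library (grey) and the Igfbpl1 library (red), in CPM on a log axis with exact 95% Poisson intervals. Ifi27l2a, at 300.2 and 1213 CPM, has the widest gap, and Herc6, at 58.2 and 54.9 CPM, is the only measured member with its red point to the left.

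Transcription factors of the response were unequal in their change. Irf7, the factor that amplifies interferon production, went from 32.2 CPM with PBS to 90.7 CPM with Igfbpl1 (2.81-fold, 2.25 to 3.54). Stat2, a part of the receptor's signalling complex, was at 21.0 and 51.0 CPM (2.42-fold, 1.83 to 3.25). Irf9, the DNA-binding part of that complex, was at 46.7 and 50.7 CPM, with an interval that spans 1 (0.879 to 1.35). Irf1, which interferon gamma also induces, was at 113 and 156 CPM (1.22 to 1.58 times the PBS level). So 2 of the 4 factors passed 1.5-fold, and the complex's own DNA-binding subunit did not.

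Effectors that act on viral RNA formed the next groups. All 3 members of the OAS family, whose founding enzymes make the messenger that activates RNase L, were higher. Oasl2 was at 23.3 and 64.4 CPM (2.76-fold), Oasl1 at 29.6 and 64.0 CPM (2.16-fold) and Oas1a at 23.01 and 39.9 CPM (1.73-fold, 1.31 to 2.32). The IFIT proteins bind foreign RNA caps and ends, and 2 of the 4 were higher: Ifit2 was at 37.8 and 79.6 CPM (2.10-fold) and Ifit3 at 41.4 and 83.3 CPM (2.01-fold). Ifit1 stood at 19.1 and 31.7 CPM and Ifit3b at 14.1 and 21.7 CPM, both within 1.5-fold on the scale with 10 CPM added. Both members of the Schlafen family, regulators of growth and of translation, were higher, with Slfn2 at 80.2 and 183 CPM (2.28-fold, 1.98 to 2.65) and Slfn5 at 24.3 and 63.8 CPM (2.62-fold).

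Isg15, a ubiquitin-like protein that is attached to other proteins, was at 49.3 and 141 CPM (2.85-fold, 2.38 to 3.43). Usp18, the protease that removes Isg15 and blocks the receptor, was at 19.7 and 37.5 CPM (1.90-fold). Herc6, the mouse ligase that attaches Isg15, was at 58.2 and 54.9 CPM (0.943-fold, 0.775 to 1.15), a log2 ratio of -0.07 that became 0.096 when libraries were scaled by the median ratio of all genes. Isg15 and its protease were thus past 1.5-fold and its ligase was not.

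Of 5 nucleic acid sensors, 3 were higher. Zbp1, a sensor of left-handed nucleic acid that can start cell death, was at 19.1 and 58.8 CPM (3.08-fold, 2.31 to 4.17). Ifi207 was at 76.9 and 193 CPM (2.51-fold) and Ifi204 at 83.8 and 153 CPM (1.83-fold); both belong to the DNA-binding p200 family. The cytosolic RNA sensors Ifih1 (MDA5) and Ddx58 (RIG-I) stood at 58.2 and 70.5 CPM and at 31.9 and 36.9 CPM, within 1.5-fold. Zbp1 and both p200 members thus passed the fold and the RNA helicase sensors did not.

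Among members that hold back viruses, Rsad2 (viperin) was at 22.0 and 43.6 CPM (1.98-fold). Bst2, which tethers new virus particles to the cell, was at 382 and 526 CPM (1.38-fold, 1.28 to 1.48). Trim30a was at 143 and 179 CPM. The GTPase Gbp3 was at 9.86 and 21.9 CPM (2.22-fold), and Gbp2 at 8.55 and 16.3 CPM. Ifi27l2a, a small mitochondrial protein, went from 300.2 CPM with PBS to 1213 CPM with Igfbpl1 (4.04-fold, 3.77 to 4.34). Without it the summed ratio was 1.71. The other induced members past 1.5-fold were Rtp4, at 27.0 and 63.5 CPM, Lgals3bp, at 157 and 291 CPM, and Xaf1, at 50.3 and 92.4 CPM. Ifi35, at 54.9 and 69.2 CPM, and Parp14, at 68.1 and 87.0 CPM, stayed within it. Ifi44, Ifi47 and Cmpk2 had too few UMIs to compare, at 1.64 to 4.60 CPM with PBS and 4.99 to 9.76 CPM with Igfbpl1. Close copies can exchange reads in 3′ counting, so values within the pair Ifit3 and Ifit3b and within the p200, Oas1, Gbp, Trim30 and Schlafen families are uncertain as to which copy they come from.

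The other immune classes showed which members were shared. In monocyte/macrophage-like cells, 16 of 33 measured members were higher and 2 lower, where 14.7% of all genes were higher and 37.2% lower, and 8 members had an interval wholly above 1. The summed level was 4947 CPM (4574 to 5343) with PBS and 7135 CPM (7014 to 7257) with Igfbpl1. In T-like cells 21 of 27 were higher and 1 lower, against 33.2% and 12.4% of all genes, and 12 had an interval above 1. There the summed level was 1681 CPM (1447 to 1943) and 4420 CPM (4272 to 4572). In B-like cells 8 of 11 were higher and 0 lower, against 15.6% of all genes higher and 24% lower, all 8 with an interval above 1, and the summed level was 1369 CPM (1207 to 1547) and 4775 CPM (4459 to 5108). Median log2 ratios of the members were 0.54, 1.19 and 1.86, beside -0.31, 0.26 and -0.14 for all genes; with members at 0 in the PBS library set at their lower bound, the first and the second were 0.40 and 1.04. One UMI is worth 7.62 CPM in the monocyte/macrophage-like and 9.14 CPM in the T-like PBS cells, so many of these ratios rest on a few UMIs. Under a stricter marker minimum 3 of 5 B-like members were higher (median 0.71), against 14.7% of all genes, and with every cell thinned to 1000 UMIs 2 of 3 (median 1.02), against 16.7%. With that thinning 11 of 15 T-like members were higher, against 38.7%. At a minimum of 50 CPM the counts were 9 of 13 in T-like cells, against 25.6%, and 8 of 21 in monocyte/macrophage-like cells, against 14.4%. When libraries were scaled by the median ratio of all genes, 25 of 33 monocyte/macrophage-like members were higher, against 26.7%.

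Summed markers of other cells differed between the libraries in these classes as well, and their part in the members' differences was not tested. In B-like cells the 14 monocyte/macrophage markers summed to 377 CPM with PBS and 5378 CPM with Igfbpl1 (3 and 10 detected), the 12 microglia markers to 297 and 1133 CPM, and the 16 T cell markers to 5.31 and 209 CPM, while the 11 B cell markers summed to 23478 and 11281 CPM. In T-like cells the monocyte/macrophage markers summed to 621 and 2590 CPM (6 and 9 detected), and the T cell markers to 5482 and 6429 CPM. In monocyte/macrophage-like cells the microglia markers summed to 2531 and 877 CPM, the T cell markers to 0 and 104 CPM, and the class's own markers to 19079 and 8919 CPM.

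**Figure D2:**
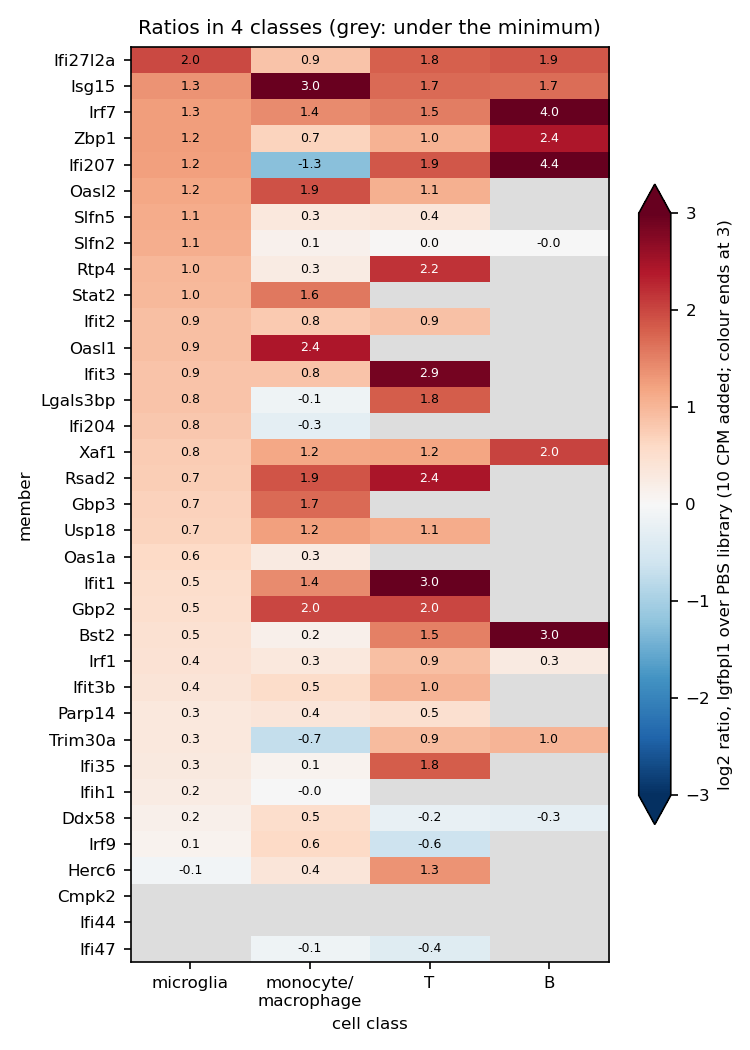
Log2 ratio, Igfbpl1 over PBS library with 10 CPM added, of each member (rows) in microglia-like, monocyte/macrophage-like, T-like and B-like cells (columns), with grey where too few UMIs were counted. The row of Ifi27l2a is red in all 4 columns, that of Slfn2 in the microglia column alone, and that of Ifi207 is blue for monocyte/macrophage-like cells.

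Of the 11 members measured in all 4 classes, 5 were higher in each: Isg15, Irf7, Ifi27l2a, Xaf1 and Zbp1. For 4 of them, all but Zbp1, the interval lay above 1 in every class. Isg15 was at 30.5 and 308 CPM in monocyte/macrophage-like cells (10.1-fold, 3.93 to 37.2), at 54.8 and 199 CPM in T-like cells (3.64-fold, 1.63 to 10.1) and at 26.5 and 107 CPM in B-like cells. Irf7 was at 107 and 303 CPM in monocyte/macrophage-like cells, at 27.4 and 98.4 CPM in T-like cells, and at 5.31 and 231 CPM in B-like cells, where the PBS value is 1 UMI (ratio 7.39 to 1761). Ifi27l2a was at 1707 and 3102 CPM in monocyte/macrophage-like cells (1.82-fold), at 557 and 1949 CPM in T-like cells (3.50-fold) and at 589 and 2165 CPM in B-like cells. Another 8 members were higher in microglia-like cells and in each other class where they could be measured: Ifit2, Ifit3, Stat2, Oasl1, Oasl2, Rsad2, Usp18 and Gbp3. The share of all genes with either pattern was not counted, and the shares given above are for each class singly. In T-like cells Ifit3 had 0 PBS UMIs and 63.0 CPM in the Igfbpl1 library, at least 2.30-fold higher, with the bound at 3 UMIs in the PBS library.

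Of the 32 members, 4 were higher in microglia-like cells and in no other class where they were measured: Slfn2, Slfn5, Ifi204 and Oas1a. All but Slfn2 fell under the minimum of 20 UMIs in B-like cells, so they are not shown to be microglial only. Their UMIs there were 2 with PBS and 11 with Igfbpl1 for Slfn5, 1 and 10 for Ifi204, and 0 and 8 for Oas1a. The intervals of these ratios lay above 1, with lower bounds of 1.27, 1.51 and 1.81. Slfn2 was at 335 and 366 CPM in monocyte/macrophage-like cells (0.804 to 1.52), at 238 and 245 CPM in T-like cells (0.683 to 1.62) and at 239 and 237 CPM in B-like cells (0.635 to 1.54). Its microglial fold of 2.28 is above the upper bound in each of them. Ifi204 was at 175 and 141 CPM in monocyte/macrophage-like cells (0.525 to 1.29). Oas1a was at 53.4 and 66.2 CPM there, and its interval (0.584 to 3.15) includes the microglial fold of 1.73. Slfn5 was at 83.8 and 106 CPM there (0.691 to 2.58) and at 27.4 and 38.0 CPM in T-like cells (0.430 to 7.12). The difference between classes was not tested for any member, and the share of all genes higher in microglia-like cells alone was not counted.

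A further 9 of the 32 passed 1.5-fold in another class and not in microglia-like cells: Ifit1, Ifit3b, Irf9, Irf1, Bst2, Ifi35, Trim30a, Gbp2 and Herc6. Of all genes, 33.2% were higher in T-like, 15.6% in B-like and 14.7% in monocyte/macrophage-like cells, against 3.72% in microglia-like cells. The share of all genes with this pattern was not counted, so the 9 are not shown to exceed it. For Ifit1, Ifit3b and Gbp2 the missing microglial call rests on the 10 CPM added. Bst2 was at 53.1 and 507 CPM in B-like cells (9.56-fold, 4.97 to 20.6) and at 110 and 333 CPM in T-like cells (1.71 to 5.96). Ifit1 had 0 PBS UMIs and 70.8 CPM in T-like cells, at least 2.58-fold higher. Irf1 was at 101 and 195 CPM in T-like cells (1.06 to 3.98). Another 3, Ifi207, Rtp4 and Lgals3bp, were higher in microglia-like cells and in some of the others. Ifih1, Ddx58 and Parp14 passed in no class. Only Ifi207 and Trim30a were lower in monocyte/macrophage-like cells, Ifi207 at 648 and 266 CPM (0.411-fold, 0.326 to 0.524) and Trim30a at 229 and 135 CPM (0.404 to 0.894). In T-like cells the 1 lower member was Irf9, at 82.2 and 49.8 CPM (0.288 to 1.43). The monocyte/macrophage-like cells of the libraries lay in different clusters, as given above.

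Summed levels in the Igfbpl1 library ordered the classes. Plasmacytoid dendritic-like cells, whose lineage is a main secretor of interferon alpha, stood highest at 8721 CPM (8389 to 9063, 76 cells), followed by monocyte/macrophage-like cells. B-like, T-like and microglia-like cells came next, where the interval of T-like cells overlapped both others and those of B-like and microglia-like cells did not overlap, then dendritic-like cells at 3932 CPM (3767 to 4102). NK-like cells were lowest at 1889 CPM (1754 to 2031). Dendritic-like, plasmacytoid dendritic-like and NK-like cells numbered 1, 2 and 3 in the PBS library and have no ratio. Bst2 alone made up 4064 of the 8721 CPM in plasmacytoid dendritic-like cells. In monocyte/macrophage-like cells, the next class, it was at 684 CPM of 7135 CPM. The classes differ by more in Bst2 than in the sum, so the top rank rests on this gene. Lgals3bp, a secreted glycoprotein, was highest in microglia-like cells, at 291 CPM against 107 CPM in the next, as was Ifit2, at 79.6 against 46.8 CPM. Those gaps exceed the intervals, whereas for Ifit3, at 83.3 CPM in microglia-like and 76.4 CPM in monocyte/macrophage-like cells, the intervals overlap.

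RNA free in the droplets gives every cell some UMIs of genes it does not express, and the retinal neurons caught in the sort give a level to set beside it. Over 72 and 127 rods, cones, bipolar and amacrine cells, with median depths of 2409 and 1918 UMIs, the members summed to 52.7 CPM (27.2 to 92.0) in the PBS library and 661 CPM (569 to 763) in the Igfbpl1 library. Ifi27l2a had 0 UMIs in the PBS neurons, which allows up to 13.2 CPM, and 185 CPM (138 to 242) in the Igfbpl1 neurons. Of its 52 UMIs in the Igfbpl1 neurons, 30 came from 10 rods, at 1329 CPM (897 to 1898). It was at 94.5 CPM in 95 bipolar cells and 67.0 CPM in 17 amacrine cells, so the pooled level is uneven and rests in part on few cells. Its level in NK-like cells, 153 CPM, is below the pooled level but not below those of the bipolar and amacrine cells. After the neurons' pooled level was taken off gene by gene, 16 of 32 members were higher in microglia-like cells, against 12.9% of all genes, with a median of 0.59. Isg15, Irf7, Zbp1 and Ifi27l2a were among the 16, and Ifit3, Xaf1, Ifi204 and Oas1a were no longer. Whether neurons carried free RNA or their own response was not tested.

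**Figure D3:**
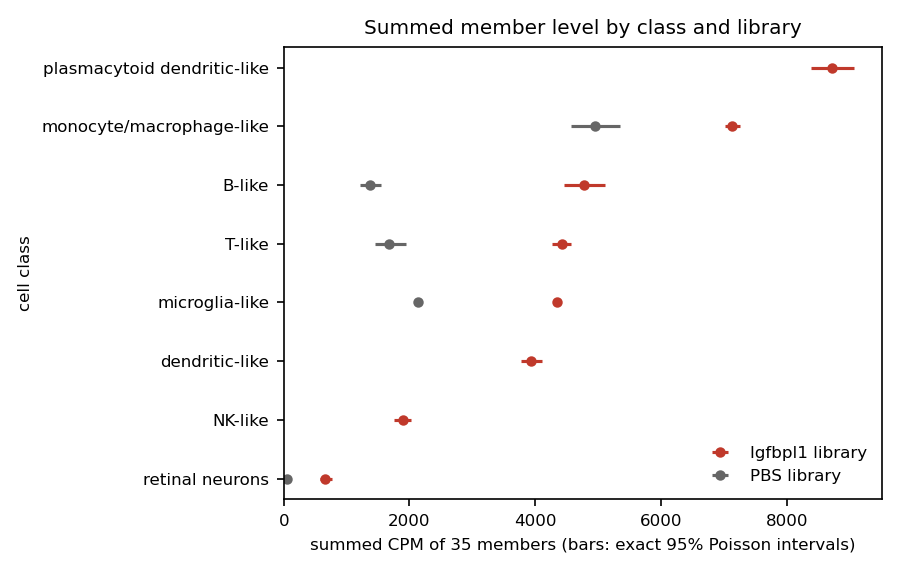
Summed level of the 35 members by class, in CPM with exact 95% Poisson intervals, for the Igfbpl1 library (red) and, in classes with at least 20 cells there and in neurons, the PBS library (grey). Plasmacytoid dendritic-like cells are at 8721 CPM, and the neurons, at 52.7 and 661 CPM, are below every immune class.

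Cell by cell, member UMIs were found in a larger share of microglia-like cells in the Igfbpl1 library. With each cell thinned to 1000 UMIs, the median cell held 1 member UMI in the PBS library and 2 in the Igfbpl1 library. No member UMI was found in 31.8% of PBS cells and 13.4% of Igfbpl1 cells. At least 5 were found in 10.6% of PBS cells (87 of 818, 8.61 to 12.95%) and 28.6% of Igfbpl1 cells (509 of 1780, 26.5 to 30.8%). Ifi27l2a alone was detected in 17.1% and 46.7% of thinned cells (33.5% and 62.7% unthinned), beside 5.51% of thinned Igfbpl1 neurons. The neurons' summed member level, 52.7 CPM with PBS and 661 CPM with Igfbpl1, was not taken off the counts per cell. Its part in these shares was not tested. The 5% of cells richest in members held 30.9% of member UMIs in the PBS library and 23.3% in the Igfbpl1 library. Thus the upper tail did not hold a larger part of the UMIs in the Igfbpl1 library.

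**Figure D4:**
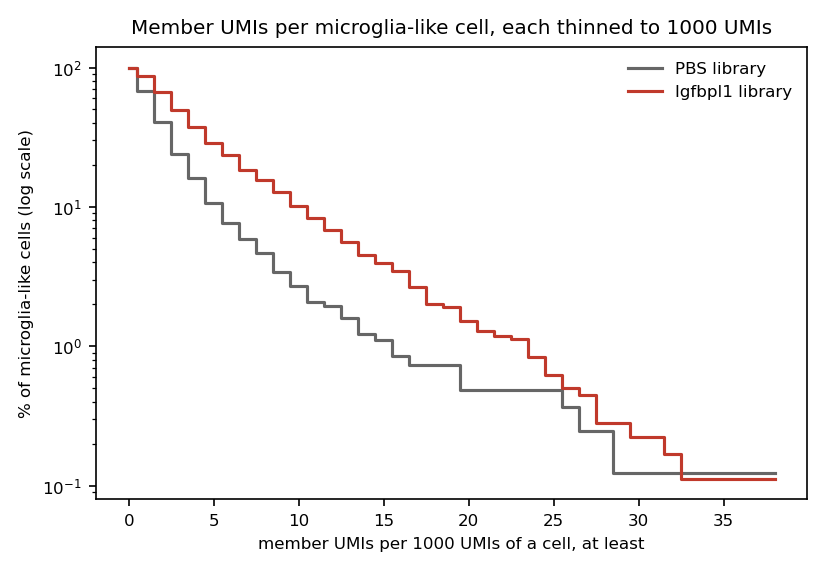
Percentage of microglia-like cells (log axis) with at least the number of member UMIs given on the horizontal axis, each cell thinned to 1000 UMIs. The Igfbpl1 curve lies above the PBS curve at 5 UMIs (28.6% against 10.6%) and at 10 UMIs (10.2% against 2.69%), and the curves meet where single cells remain.

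One cluster, made with these genes among others, held cells with the highest member level: 35 of 818 PBS cells (4.28%, 2.998 to 5.90%) and 135 of 1780 Igfbpl1 cells (7.58%, 6.40 to 8.91%). Members summed to 10606 and 13723 CPM inside it and to 1728 and 3643 CPM in the other microglia-like cells. Its cells held 91.4% of the Ifit1 UMIs of PBS microglia-like cells and 57.5% of those of the Igfbpl1 library. The shares were 88.4% and 79.0% for Ifit3b and 65.7% and 69.7% for Rsad2. By contrast it held 6.12% and 8.89% of Irf1, 6.34% and 9.40% of Irf9, and 12.7% and 12.9% of Ifi27l2a UMIs. The IFIT genes and Rsad2 were thus counted mostly in a few cells, and Irf1, Irf9 and Ifi27l2a across the class. Without that cluster 18 members were still higher, against 3.96% of all genes, with a median of 0.81. Across thinned cells, a member's correlation with the sum of the others had a median of 0.27 in the PBS library (22 members) and 0.24 in the Igfbpl1 library (31 members), lowest for Irf1 in both; cells of a library share their depth and free RNA.

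Microglia-like cells were also grouped again without the members, the other listed pathway genes, Xist and Y-linked genes. This gave 11 groups, of which 7 had at least 20 cells in each library. Interferon-induced genes outside the lists were not taken out, and Ifitm3 was among the top genes of the group with the highest member level. The summed member level was higher in the Igfbpl1 library in all 7, by 1.05-fold to 2.11-fold, and 4 of them passed 1.5-fold. Of the 4 groups with fewer cells, the one with the highest member level went the other way, at 17384 CPM (16165 to 18671, 10 PBS cells) and 13046 CPM (12366 to 13753, 40 Igfbpl1 cells), and the other 3 were higher with Igfbpl1. The group with P2ry12, a receptor of resting microglia, among its top genes held 52.7% of the PBS cells and 9.21% of the Igfbpl1 cells, with 1485 CPM (1426 to 1546) and 1923 CPM (1783 to 2072). A group with the heat shock genes Hsph1, Hspd1 and Hsp90aa1 among its top genes held 6.11% and 26.0% of the cells, with 2658 and 4174 CPM. A group with Dnajb1 and Hmox1 among them held 2.93% and 23.8%, with 3694 CPM (3289 to 4136) and 3890 CPM (3751 to 4033). The mix of groups therefore moved together with the module, and its part in the class-wide ratio was not separated here.

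The libraries differed further between cells that carry transcripts of the X-linked RNA Xist and cells that carry Y-linked transcripts. The sources used here do not give the sex of the mice that were pooled. Among microglia-like cells with Xist and no Y-linked UMIs (206 PBS and 668 Igfbpl1 cells), 29 of 33 members were higher, against 8.72% of all genes, and the sum was 1683 CPM (1590 to 1780) and 5722 CPM (5616 to 5830). Among cells with Y-linked and no Xist UMIs (384 and 449), 4 of 32 were higher and 2, Rsad2 and Ifi35, lower, against 2.48% and 5.28% of all genes, and the sum was 2313 CPM (2237 to 2390) and 2936 CPM (2838 to 3037). In the remaining cells 14 of 31 were higher, against 4.4% of all genes. Median log2 ratios were 1.42, 0.13 and 0.56, beside -0.18, -0.08 and -0.15 for all genes. All 32 members measured in both sets had the larger log2 ratio in the Xist-only set. Only Ifi27l2a, Oasl1, Slfn2 and Ifit2 were higher in both, and 25 in the Xist-only set alone. The difference between the sets was not tested, and the shares of all genes with these patterns over both sets were not counted.

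**Figure D5:**
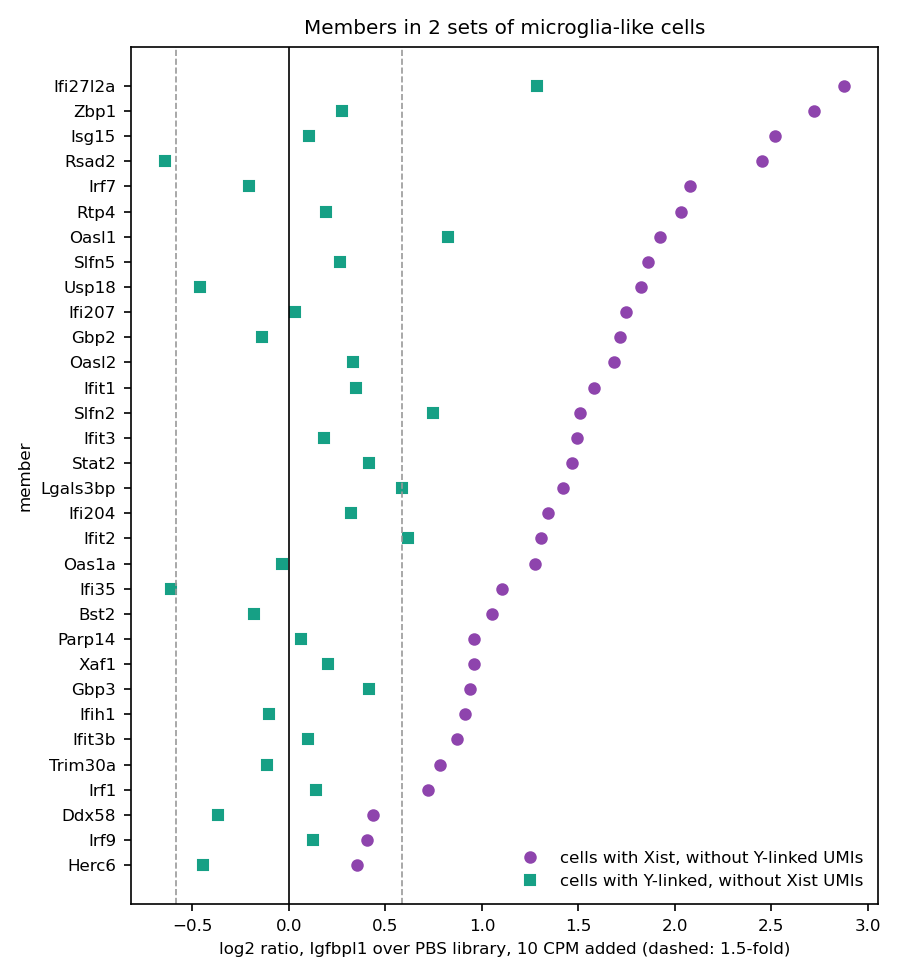
Log2 ratio, Igfbpl1 over PBS library with 10 CPM added, of 32 members in microglia-like cells with Xist and no Y-linked UMIs (purple circles) and with Y-linked and no Xist UMIs (green squares). Each circle lies to the right of its square, and 11 squares lie below 0.

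Isg15 shows the split. It was at 24.6 and 188 CPM in the Xist-only set (7.64-fold, 4.77 to 13.04) and at 62.0 and 67.5 CPM in the Y-only set (0.796 to 1.48). Irf7 was at 26.0 and 142 CPM in the Xist-only set and at 40.5 and 33.8 CPM in the Y-only set. Ifi27l2a differed between the libraries in both sets, at 224 and 1713 CPM (7.64-fold) and at 286 and 712 CPM (2.49-fold, 2.21 to 2.80). Slfn2 was at 64.3 and 202 CPM and at 90.8 and 159 CPM (1.40 to 2.20). The cluster of highest member level took 1.94% of the PBS and 12.7% of the Igfbpl1 cells in the Xist-only set, and 4.69% and 4.68% in the Y-only set. Other classes had too few cells in these sets for member ratios: B-like cells summed to 1141 CPM (11 cells) and 6391 CPM (22 cells) in the Xist-only set and to 1336 CPM (39 cells) and 914 CPM (12 cells) in the Y-only set. T-like cells stood at 1415 CPM (3 cells) and 4176 CPM (177 cells) and at 2207 CPM (15 cells) and 2801 CPM (7 cells). Monocyte/macrophage-like cells stood at 4869 CPM (11 cells) and 6961 CPM (260 cells) and at 5713 CPM (11 cells) and 5708 CPM (12 cells). In these classes and in microglia-like cells the mix of the sets thus differed between the libraries. Its part in the class-wide ratios was not tested.

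Ligands and receptors of the pathway were described from lists of other genes. Of 21 interferon genes only Ifnb1 and Ifng were rows of the tables. Ifnb1, the gene of interferon beta, was counted in 16 of 818 PBS microglia-like cells (1.96%, 1.12 to 3.16%) and 22 of 1780 Igfbpl1 cells (1.24%, 0.776 to 1.87%), at 17.4 and 16.05 CPM (0.639 to 1.34). The members summed to 7950 CPM (7305 to 8638) in those 16 cells and 1999 CPM in the rest, and to 6797 CPM (6126 to 7522) in the 22 cells and 4319 CPM in the rest. Cells with an Ifnb1 UMI thus had the higher member level in both libraries, and their share was not larger in the Igfbpl1 library. Those shares were taken without thinning, at median depths of 3549.5 and 2138.5 UMIs, so detection was not equal. A single cell held 14 of the 53 Ifnb1 UMIs with PBS and 23 of the 74 with Igfbpl1. The cluster of highest member level held 7 of the 16 and 5 of the 22 cells. Ifng, the gene of interferon gamma, was at 36.6 and 351 CPM in T-like cells. In NK-like cells of the Igfbpl1 library it was at 1095 CPM, counted in 91 of 164 cells. In microglia-like cells it was at 0.329 CPM (1 UMI) and 20.6 CPM, the latter from 24 of 1780 cells.

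Ifnar1 was at 47.7 and 54.9 CPM in microglia-like cells and Ifnar2 at 303 and 257 CPM (0.779 to 0.927). Of the receptor and signalling genes, Socs3, a feedback inhibitor of cytokine receptors, was at 229 and 565 CPM (2.46-fold, 2.27 to 2.68) and Stat3 at 180 and 313 CPM (1.74-fold), and 0 were lower in those cells. Of all 8246 genes measured in these cells, 3.72% were higher and 5.94% lower, the shares to set beside each count here. Of 13 measured genes of nucleic acid sensing, 0 passed in either direction, which is near those shares. Of 39 measured interferon-stimulated genes outside the module, 12 were higher and 0 lower (median log2 ratio 0.23), and 6 of the 12 belong to the p200 family. Among those, Ifi206 was at 14.8 and 63.8 CPM (4.31-fold) and Ifi213 at 18.7 and 63.1 CPM (3.37-fold). Of 8 genes that interferon gamma induces more strongly, Cxcl9, Gbp7 and Nlrc5 were higher and Irgm2 was lower, at 31.2 and 14.5 CPM.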

How the data were processed

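Both libraries were made with a 10x 3′ kit, per the labels. The authors deposited unnormalised UMI counts for each gene in each cell. Per the submitters' processing notes, Cell Ranger 3.1 and mm10 were used. An earlier filter on cells is not given in the sources used. A minimum of 200 genes and a limit of 20% mitochondrial UMIs per cell removed 0 cells. Doublets called by Scrublet, 6 (0.569%) and 62 (1.86%), were kept.

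A cell took the class, of 16 marker sets, with the highest share of its markers detected, with at least 3 markers and no tie; 10 and 176 cells stayed unassigned. Such classes are rebuilt names. UMIs were summed per class and library, in classes of at least 20 cells per library, and divided by the class total. A gene was measured at a mean of at least 10 CPM and 20 UMIs, if listed in both tables. Shares have Clopper-Pearson, ratios conditional binomial and CPM values Poisson intervals (scipy 1.17.1), and the counting script was tested on simulated data. Clusters came from scanpy 1.11.5 (2000 variable genes, 30 components, 15 neighbours, Leiden resolution 0.8, igraph 0.11.9), with pandas 2.3.3, numpy 2.4.6 and matplotlib 3.10.9 under Python 3.11.15. Gene positions and transcripts for the check of promoter windows were those of GENCODE.

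Every measured member is named in microglia-like cells. Of the other pathway lists at most 3 genes by level and 2 per direction by ratio were open to naming, plus Ifnar1, Ifnar2, Ifnb1 and Ifng; other genes behind a count of 5 or fewer, and top genes of microglial groups, were named after their values were seen. The members, lists and tests were chosen with earlier results of these data known. The class rule, the regrouping without the members and the listed pathway genes, the subtraction of the neurons' level, the cells with Ifnb1 and the cluster of highest member level were chosen after the values were seen. Some genes that these rules name are left out here.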

Additional observations from a re-analysis of the deposited data

Results flagged for a closer look

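Some members went opposite ways, past 1.5-fold each, in different sets of cells; none of these differences was tested, and all values are log2 ratios, Igfbpl1 over PBS library. In microglia-like cells Rsad2 was at 2.45 among cells with Xist and no Y-linked UMIs and at -0.64 among cells with Y-linked and no Xist UMIs, and Ifi35 at 1.10 and -0.61. Irf9 was at 0.61 in monocyte/macrophage-like cells and -0.62 in T-like cells, both on fewer than 10 PBS UMIs. Ifi207 was at 1.22 in microglia-like, 1.86 in T-like and 4.37 in B-like cells but at -1.25 in monocyte/macrophage-like cells. Trim30a was at 0.95 in T-like and 1.03 in B-like cells and at -0.72 in monocyte/macrophage-like cells.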

How the results depend on the processing

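In microglia-like cells the median kept its direction under every alternative run. The 20 higher of 32 members were 10 of 17 at a minimum of 50 CPM, where fewer members remained (4.65% of all genes higher), and 10 of 32 with 50 CPM added (1.64%). Among Xist-only cells the median was 1.42, and among Y-only cells it was 0.13 with 4 higher; with the stricter class the medians were 1.55 and 0.19, with 5 higher in the Y-only set. In the Y-only set 4 of the members called higher in the whole class changed direction: Irf7 (-0.21), Oas1a (-0.036), Rsad2 (-0.64) and Usp18 (-0.46). So did 6 that had been within 1.5-fold: Bst2 (-0.18), Ifi35 (-0.61), Ifih1 (-0.10), Ddx58 (-0.37), Trim30a (-0.12) and Gbp2 (-0.14). In monocyte/macrophage-like cells 16 of 33 became 8 of 21 at 50 CPM and 25 of 33 when scaled by the median ratio of all genes (14.4% and 26.7% of all genes higher). In T-like cells 21 of 27 became 9 of 13 at 50 CPM and 11 of 15 when thinned (25.6% and 38.7%). In B-like cells 8 of 11 and a median of 1.86 became 2 of 3 and 1.02 thinned, 3 of 5 and 0.71 with the stricter marker minimum, 3 and 0.74 with that and the cluster class together, and 5 of 8 and 1.47 without the 5% of cells richest in members; with 50 CPM added the median was 1.15. The mean member UMIs per 1000 in Igfbpl1 microglia-like cells was 3.99, and 4.35 when cells were thinned to 2000. Beyond the fewer members measured, the cause of these shifts was not tested. The stricter class, alone or together with the cluster class, and the sets by Xist left under 20 monocyte/macrophage-like cells in at least 1 library. The sets by Xist did so for T-like and B-like cells, so those gave no value. No paired analysis was possible because each group has 1 library. Subtracting the neurons' level, leaving out the cluster of highest member level, combining the stricter class with the cluster class, and combining the stricter class with the sets by Xist were added after seeing the data.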
